A study of Homo sapiens with 12 samples.

Results

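The nuclear genes for subunits of the oxidative phosphorylation complexes were followed across RNA-seq libraries of RCC4 cells, a line from a human clear cell renal carcinoma. Members were protein-coding genes chosen by name: the NDUFA, NDUFB, NDUFC, NDUFS and NDUFV genes of complex I, SDHA to SDHD of complex II, the UQCR genes and CYC1 of complex III, the COX4I and COX5 to COX8 genes of complex IV, and the ATP5F1, ATP5M and ATP5P genes of complex V. Assembly factors, pseudogenes and NDUFA4L2 were left out. This gave 89 of the 60663 genes counted: 39 for complex I, 4 for complex II, 10 for complex III, 17 for complex IV and 19 for complex V. They comprised 87 subunit genes and 2 readthrough loci, ATP5MF-PTCD1 and NDUFC2-KCTD14. NDUFA4 is counted here with complex I by its symbol, although its protein is now known as a subunit of complex IV.

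Complexes I to IV sit in the inner mitochondrial membrane. They pass electrons from NADH and succinate through ubiquinone and cytochrome c to oxygen, and complexes I, III and IV pump protons as they do so. Complex V, the ATP synthase, lets the protons flow back and makes ATP. A few core subunits of complexes I, III, IV and V are encoded in the mitochondrial genome, and all other subunits by nuclear genes, so that assembly needs RNA from both. Clear cell renal carcinoma is known for glycolytic metabolism and for loss of VHL, the tumour suppressor that sends hypoxia-inducible factors (HIF) to degradation.

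The 4 groups had 3 libraries each. VHL-negative RCC4 cells carry the loss of VHL of the original line and were given either JQ1 at 5 µM or its solvent DMSO. VHL-positive RCC4 cells, in which VHL was reintroduced, were given the same 2 treatments. JQ1 is an inhibitor of BET bromodomain proteins, named a MYC inhibitor in the labels. All cells grew in high-glucose medium with geneticin. The labels used here do not give the length of treatment, the VHL construct, whether each line was 1 clone, or whether replicates came from cultures of their own. The p-values therefore measure the spread between these libraries, which may be technical. Levels are in CPM, read counts scaled to a common library size after TMM normalisation, given in the order of replicates 1, 2 and 3, and means carry the SD over 3 libraries. Changes are on the log2 scale and were tested by quasi-likelihood in edgeR, and p-values were adjusted by Benjamini-Hochberg over the 20714 genes that passed a filter on low counts. A gene is said to rise or fall where its adjusted p was under 0.05. Of the 89 members, 81 passed the filter: 38, 4, 10, 12 and 17 for complexes I to V.

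Libraries held 15452949 to 32502310 counts, and the members took 0.308 to 0.651% of them. VHL had 543 to 1031 counts in VHL-negative libraries and 1642 to 6039 in VHL-positive libraries. In VHL-positive cells it had 6039, 4840 and 3848 counts under JQ1, against 1843, 1642 and 2622 under DMSO. The VHL level of these cells thus differed between treatments, and its part in the results was not tested. CA9, a HIF target, had 404 to 2563 counts in VHL-negative libraries and 0 to 26 in VHL-positive libraries. In VHL-negative cells CA9 had 34.2, 24.1 and 26.1 CPM under JQ1, against 97.8, 75.8 and 77.0 CPM under DMSO, without overlap. The renal epithelial markers PAX8 and KRT8 had at least 4080 counts in every library, whereas endothelial and leukocyte markers had at most 9. Of 4 fibroblast markers, DCN and LUM had at most 5 counts, COL1A1 10 to 70 and PDGFRB 4 to 219. The 4 summed to 1.98 to 3.63 CPM in JQ1-treated and 7.96 to 10.6 CPM in DMSO-treated VHL-negative cells, and to 0.801 to 1.05 CPM in JQ1-treated and 1.85 to 4.27 CPM in DMSO-treated VHL-positive cells. Their part in the results was not tested.

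The JQ1 libraries of VHL-negative cells stood apart from each other. Replicate 2, with the smallest total count of all 12, was the lowest library for 69 of the 81 tested members. Relative to each gene's mean over 12 libraries, the median member deviated by 0.02 in replicate 1, -0.74 in replicate 2 and -0.36 in replicate 3 (log2 CPM). The nuclear noncoding RNAs NEAT1 and MALAT1 together took 1.5, 4.01 and 2.84% of counts in these libraries, against 0.287, 0.799 and 0.5% in the DMSO libraries of VHL-negative cells. They took 1.22 to 1.41% in the JQ1 libraries of VHL-positive cells and 0.271 to 0.838% in their DMSO libraries. Ribosomal protein genes took 1.99, 1.18 and 1.6% in the JQ1 libraries of VHL-negative cells and 1.57 to 2.08% in the other 9. The part of this difference between libraries in the results was not tested, and the counts of members below are given with and without these libraries. Counts for other gene lists rest on all 12 libraries.

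**Figure D1:**
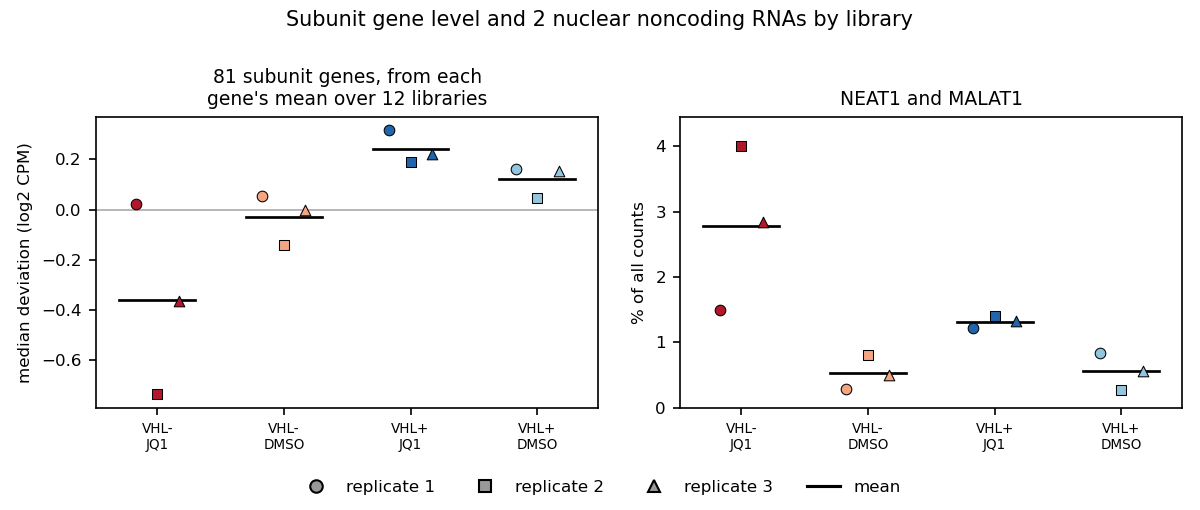
Left, the median over 81 subunit genes of the deviation from each gene's 12-library mean (log2 CPM). Right, the share of counts (%) of NEAT1 and MALAT1. Points are libraries and bars are group means. Replicate 2 of the JQ1-treated VHL-negative cells is lowest on the left (-0.74) and highest on the right (4.01%).

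Promoters of the members were read from the RefSeq table for GRCh38.p14, which held 83 windows for 70 of the 89 genes, each running from 250 bases before to 50 after a transcription start. Windows are shown for 4 members with large changes, so that their promoters can be read beside their values. Among members that passed, NDUFA9 and COX6A1 changed most with JQ1 in VHL-negative and VHL-positive cells, and NDUFV2 and COX7C were among the most negative between the lines under DMSO and under JQ1. The windows are NDUFA9 (chr12:4648864-4649163, plus strand), COX6A1 (chr12:120437863-120438162, plus), NDUFV2 (chr18:9102449-9102748, plus) and COX7C (chr5:86617691-86617990, plus). Capitals mark CGCATGCG (the core of the NRF1 site), CCGGAAG (an ETS site, as bound by GABPA) and ATGGCG (the YY1 core), found on either strand.
NDUFA9: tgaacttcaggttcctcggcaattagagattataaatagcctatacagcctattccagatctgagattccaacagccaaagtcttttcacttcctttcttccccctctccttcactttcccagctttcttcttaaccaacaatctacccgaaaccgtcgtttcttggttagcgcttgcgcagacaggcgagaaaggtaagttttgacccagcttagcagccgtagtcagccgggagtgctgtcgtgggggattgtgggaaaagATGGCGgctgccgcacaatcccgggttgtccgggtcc
COX6A1: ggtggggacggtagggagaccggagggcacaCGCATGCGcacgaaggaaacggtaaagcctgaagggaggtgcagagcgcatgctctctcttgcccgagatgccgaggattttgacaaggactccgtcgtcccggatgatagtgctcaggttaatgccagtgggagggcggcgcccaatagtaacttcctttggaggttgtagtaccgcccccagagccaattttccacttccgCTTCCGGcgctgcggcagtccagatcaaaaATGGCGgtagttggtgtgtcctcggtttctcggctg
NDUFV2: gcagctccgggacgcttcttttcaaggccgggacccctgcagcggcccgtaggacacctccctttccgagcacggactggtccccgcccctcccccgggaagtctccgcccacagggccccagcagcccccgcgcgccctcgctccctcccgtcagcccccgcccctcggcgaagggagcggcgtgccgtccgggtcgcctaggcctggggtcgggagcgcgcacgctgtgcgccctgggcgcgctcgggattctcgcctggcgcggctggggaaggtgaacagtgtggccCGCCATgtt
COX7C: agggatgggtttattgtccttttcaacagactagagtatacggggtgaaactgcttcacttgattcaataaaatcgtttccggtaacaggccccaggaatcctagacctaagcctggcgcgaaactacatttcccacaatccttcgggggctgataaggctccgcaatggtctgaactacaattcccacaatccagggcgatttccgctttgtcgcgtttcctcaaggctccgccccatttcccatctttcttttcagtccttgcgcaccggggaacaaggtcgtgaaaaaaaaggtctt
COX6A1 held all 3 motifs, NDUFA9 and NDUFV2 held the YY1 core, and none was found in the COX7C window. The YY1 core was in 32.5% of member windows, against 10.7% of all 35116 windows and 15.4% of the 17549 windows of tested genes. The marked YY1 cores of NDUFA9, COX6A1 and NDUFV2 lie within the last 50 bases, past the transcription start. ATGGCG begins with ATG, and translation starts were not separated from YY1 sites in these shares. The ETS site was in 26.5% of member windows, against 10.3% of all windows and 15.6% of those of tested genes. The NRF1 core was in 13.3% of member windows, against 2.02% and 3.1%. CACGTG, the E-box bound by MYC and MAX, was in 8.43% of member windows, against 7.26% and 8.93%. ACGTG, the HIF core, which also lies within CACGTG, was in 24.1% of member windows, against 21.4% and 24.8%. The 7 member genes with CACGTG were ATP5MC1, ATP5ME, ATP5PB, NDUFA11, NDUFA7, NDUFS7 and UQCR11.

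Per length, the subunit RNAs differed widely within each complex. Length here is the union of all annotated exons of a gene, so these levels and their ranks also depend on the annotated isoforms. ATP5F1A and ATP5F1B averaged 736 and 850 CPM in JQ1-treated VHL-positive cells. Over 10908 and 2322 bases of exon these became 67.5 and 366 per kilobase. On the scale of mean CPM per kilobase of exon over the 12 libraries, ATP5F1B, the catalytic beta subunit of ATP synthase, was highest at 261, followed by NDUFS5 (complex I, 192) and COX8A (complex IV, 164). UQCRH, the hinge protein, led complex III at 74.6 and SDHB, the iron-sulfur subunit, led complex II at 17.1. ATP5F1B stood at 156 in JQ1-treated and 210 in DMSO-treated VHL-negative cells, and at 366 and 312 in JQ1- and DMSO-treated VHL-positive cells. Median levels per kilobase were 11.9 over all members of complex I, 5.81 for complex II, 31.5 for complex III, 22.1 for complex IV and 20.8 for complex V. The 8 members that did not pass the filter were COX4I2, COX6A2, COX6B2, COX7B2, COX8C, ATP5MGL and both readthrough loci, with at most 12 counts in any library. COX4I2, COX6A2, COX6B2, COX7B2 and COX8C are isoforms known from lung, muscle or testis. For 20 members, 16 of them tested, more than 20% of the exon length overlaps another gene on either strand, which makes their counts uncertain. The strand setting of the counting is not known, and exons shared on the same strand stay ambiguous whatever it was.

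Summed over all members, JQ1-treated VHL-negative cells held 5042, 2837 and 3798 CPM, against 5146, 4416 and 5050 CPM in DMSO-treated VHL-negative cells. VHL-positive cells held 7032, 6264 and 6493 CPM under JQ1, against 5755, 5496 and 5921 CPM under DMSO. The sums of the VHL-negative libraries overlapped between treatments, and in VHL-positive cells every JQ1 library lay above every DMSO library. Every VHL-positive library lay above every VHL-negative library. Both separations depended on the TMM scaling. As a share of total counts, the members took 0.651, 0.568 and 0.613% under JQ1, against 0.594, 0.521 and 0.605% under DMSO in VHL-positive cells, which overlapped. In VHL-negative cells they took 0.484, 0.308 and 0.401% under JQ1, against 0.46, 0.496 and 0.567% under DMSO, and the last of these lay above replicate 2 of the DMSO-treated VHL-positive cells. In bulk RNA a lower level in each cell and fewer cells with the RNA cannot be told apart.

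**Figure D2:**
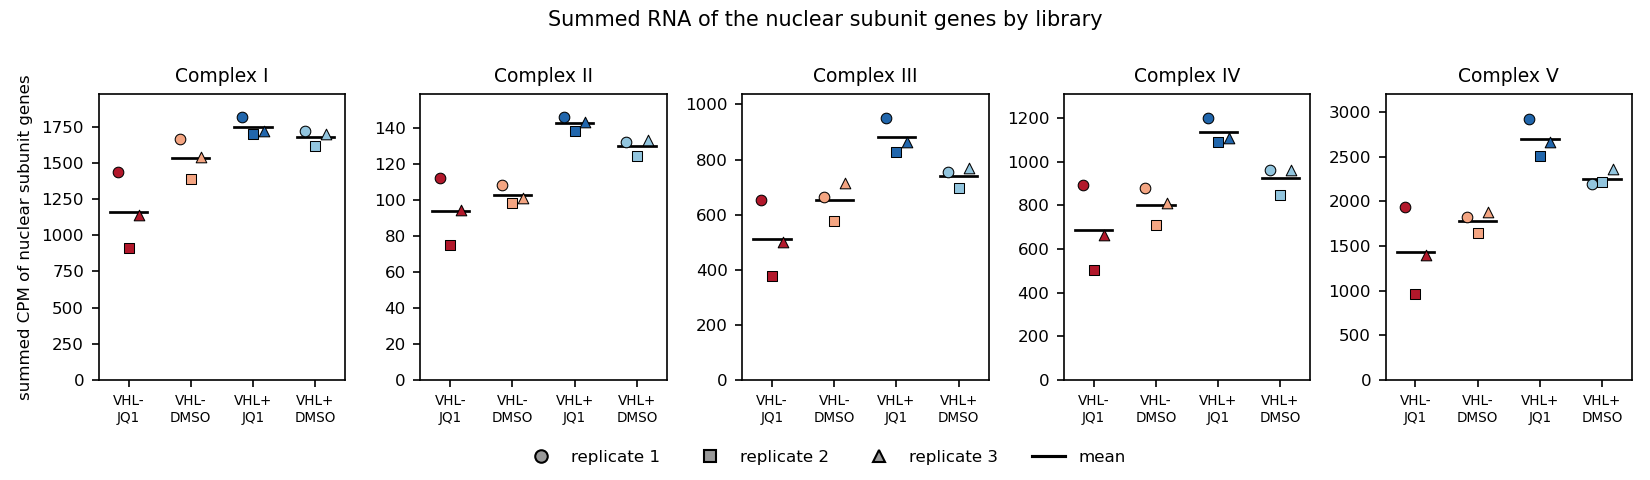
Summed CPM of the nuclear subunit genes of complexes I to V in each library, with group means as bars. Complex V ran from 967 to 1940 CPM in JQ1-treated VHL-negative cells and from 2510 to 2920 CPM in JQ1-treated VHL-positive cells.

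In VHL-negative cells, 20 subunit genes fell with JQ1, 13 of them among the 38 tested genes of complex I, the largest group. Of 81 tested members these were 24.7%, against 17.5% of all genes tested, and 1 rose (1.23%), against 14.6%. The median log2 fold change was -0.30 over members and 0.03 over all genes. The falls of complex I (34.2% of its tested genes) were 4 of its 7 core subunits (median -0.51) and 9 of 30 accessory subunits (median -0.34). Complex III had 4 falls among 10 genes (40%). Complex V had 3 among 17 (17.6%), about the share of all genes. Most genes of complexes I, III and V did not pass. None of the 12 tested genes of complex IV passed, with 1 at an unadjusted p under 0.05 in edgeR and 0 adjusted calls by DESeq2. SDHA of complex II was the rise. Without replicate 1, 2 or 3 of these JQ1 libraries, 51, 9 and 11 members fell and 1, 2 and 0 rose. The shares of all genes in these refits are not given here, so a change in the whole fit cannot be told from one in the members. For the difference of JQ1 effects, leaving out replicate 1 moved the share of all genes called from 1.21 to 16.2%. Of the 20 falls, 9 kept their call when each of the 12 libraries was left out in turn, among them ATP5MC1, ATP5PB, NDUFA5, NDUFA9, NDUFB4, NDUFB7, NDUFB8 and NDUFS7.

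NDUFA9 (ENSG00000139180, GRCh38 chromosome 12, 4649095 to 4694317), an accessory subunit near the quinone site of complex I whose promoter is printed above, had the largest change among members that passed. It had 10.9, 6.91 and 8.43 CPM under JQ1, against 16.7, 18.5 and 20.4 CPM under DMSO. Every JQ1 library lay below every DMSO library, and the change was -1.07 (SE 0.16, adjusted p = 0.000107). NDUFB8, of the membrane arm, had 9.81, 4.89 and 5.52 CPM under JQ1, against 16.2, 12.1 and 14 CPM under DMSO (log2 -1.05, SE 0.238, adjusted p = 0.00332). The groups did not overlap, but 48.5% of NDUFB8 exon length is shared with the locus ENSG00000255339. NDUFB4 and NDUFB7, also membrane-arm subunits, fell by 0.94 and 0.93 on the log2 scale, with no overlap between groups. NDUFB7 averaged 41.3 ± 8.02 CPM under JQ1 and 79.0 ± 12.3 CPM under DMSO.

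The core subunits of complex I carry the iron-sulfur clusters and the NADH and quinone sites. NDUFS7, which holds the last cluster before ubiquinone, had 10.2, 5.66 and 8.12 CPM under JQ1, against 17.7, 12.1 and 14.2 CPM under DMSO. Its JQ1 libraries all lay below the DMSO libraries (log2 -0.86, SE 0.194, adjusted p = 0.0031), and 49.1% of its exon length overlaps another locus. NDUFS8 fell by 0.70 and NDUFS1 by 0.51 (adjusted p = 0.0114 and 0.0196). NDUFS8 did not pass without replicate 2 of the JQ1 libraries or replicate 1 of the DMSO libraries, and NDUFS1 did not pass without replicate 2 or 3 of the JQ1 libraries. NDUFV1, the NADH-binding subunit, had 81.6, 60.6 and 73.3 CPM under JQ1, against 89.5, 83.5 and 91.1 CPM under DMSO, which did not pass (log2 -0.29, adjusted p = 0.0976).

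ATP5MC1 encodes subunit c, the unit of the rotating ring of ATP synthase. It had 28.5, 16.9 and 22.1 CPM under JQ1, against 55.3, 33.7 and 34.0 CPM under DMSO (log2 -0.86, SE 0.208, adjusted p = 0.00504). Replicate 1 was the highest library in both groups, and the groups did not overlap. ATP5PB, of the peripheral stalk, averaged 66.4 ± 15.5 CPM under JQ1 and 115 ± 14.5 CPM under DMSO (log2 -0.79, adjusted p = 0.00115). In complex III, CYC1 (cytochrome c1), UQCR10, UQCRB and UQCRC2 fell by 0.48, 0.71, 0.54 and 0.44. The other falls were ATP5MK, NDUFA13, NDUFA5, NDUFAB1, NDUFB10 and NDUFS6, between -0.69 and -0.45.

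In VHL-positive cells, some subunit genes rose and others fell with JQ1, and both counts depended on the libraries and the scaling. Of 81 tested members 6 rose (7.41%), against 15.3% of all genes tested, and 4 fell (4.94%), against 16.5%. The median log2 fold change was 0.13 over members and -0.03 over all genes. With library sizes scaled by total counts alone, 2 rose and 10 fell, and the median over all genes shifted to -0.14. The rises were COX6A1, NDUFA2, UQCRHL, COX7A2, UQCRQ and SDHA, and the falls included NDUFA5, ATP5MC1 and NDUFA9. COX6A1, NDUFA2 and NDUFA5 kept their calls when each library was left out in turn. The total of called members ran from 3, without replicate 1 of the VHL-positive JQ1 libraries, to 21, without replicate 1 or 2 of the VHL-negative JQ1 libraries, where 16 rose and 5 fell in each case. With only the groups compared, 19 of 80 rose and 9 fell. It was 5 without replicate 2 or 3 of the VHL-positive JQ1 libraries and 5 without replicate 3 of the VHL-positive DMSO libraries. It was 15, 12 and 15 without replicate 1, 2 or 3 of the VHL-negative DMSO libraries, and without the third of these 6 rose and 9 fell. Shares of all genes in these refits are not given here.

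COX6A1 (ENSG00000111775, chromosome 12, 120438090 to 120440742), the broadly expressed form of a complex IV subunit, rose most. It had 86.0, 80.6 and 83.9 CPM under JQ1, against 30.9, 36.3 and 51.0 CPM under DMSO (log2 1.08, SE 0.234, adjusted p = 0.00233). Every JQ1 library lay above every DMSO library. In VHL-negative cells COX6A1 had 58.1, 24.7 and 39.1 CPM under JQ1, against 38.1, 35.0 and 41.6 CPM under DMSO, so that its JQ1 libraries lay on both sides of the DMSO libraries. NDUFA2, an accessory subunit of the matrix arm, had 62.7, 53.0 and 52.7 CPM under JQ1, against 33.5, 23.0 and 33.4 CPM under DMSO (log2 0.91, SE 0.184, adjusted p = 0.00145). The VHL-negative cells had 39.3, 23.6 and 31.0 CPM under JQ1, against 19.7, 23.9 and 24.9 CPM under DMSO, and replicate 2 of the JQ1 libraries lay among the DMSO values.

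UQCRQ and COX7A2, small subunits of complexes III and IV, rose by 0.59 and 0.68 in VHL-positive cells (adjusted p = 0.0184 and 0.037). UQCRQ averaged 121 ± 13.4 CPM under JQ1 and 80.6 ± 12.1 CPM under DMSO, and 20.8% of its exon length overlaps GDF9. UQCRHL rose by 0.70 (adjusted p = 0.0356), but at 79 to 143 counts in these libraries, and its sequence is nearly that of UQCRH, so reads may have been assigned to either. UQCRH itself averaged 0.45 higher without passing (adjusted p = 0.0846). Scaled by total counts alone, UQCRQ, COX7A2, UQCRHL and SDHA did not pass.

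NDUFA5, an accessory subunit of the matrix arm, was the fall that kept its call with each library left out. It had 19.8, 21.6 and 19.3 CPM under JQ1, against 33.1, 34.1 and 28.4 CPM under DMSO in VHL-positive cells, a log2 change of -0.65 (SE 0.135, adjusted p = 0.00168). The VHL-negative cells had 17, 15.2 and 18.5 CPM under JQ1, against 30.1, 23.2 and 25.1 CPM under DMSO (log2 -0.63, SE 0.136, adjusted p = 0.00234). The treatments did not overlap in either line. ATP5MC1 fell by 0.58 and NDUFA9 by 0.42 in VHL-positive cells (adjusted p = 0.043 and 0.05, the last just inside the threshold before rounding). All 4 falls of the VHL-positive cells were among the 20 of the VHL-negative cells, and SDHA rose in both lines. These comparisons share no library, but all 12 libraries were fitted together with a shared estimate of the spread, so their calls are not independent. The SDHA call in VHL-negative cells was lost without replicate 1, 2 or 3 of the VHL-positive JQ1 libraries. The same overlap over all genes was not counted. No member rose in one line and fell in the other.

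**Figure D3:**
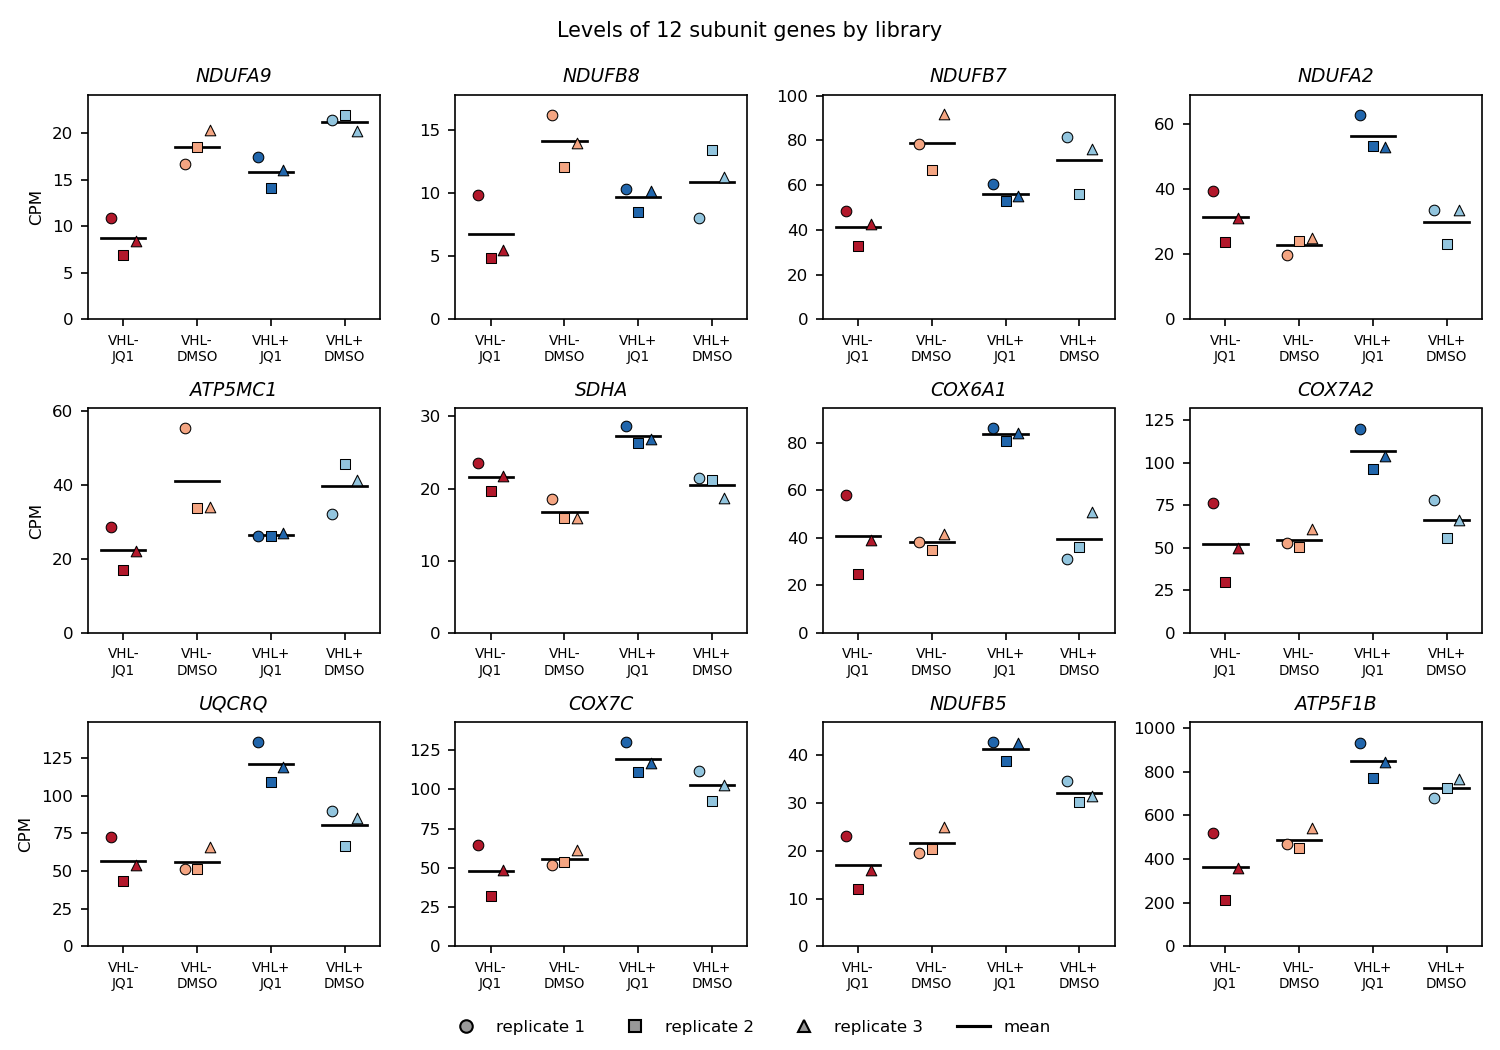
CPM of 12 subunit genes in each library, with group means as bars and linear axes from 0. NDUFA9 lies lower under JQ1 than under DMSO in both lines, COX6A1 higher under JQ1 than under DMSO in VHL-positive cells (80.6 to 86.0 CPM under JQ1), and COX7C and NDUFB5 higher in VHL-positive than in VHL-negative cells.

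The difference between the JQ1 effects, VHL-negative minus VHL-positive, was tested directly. No member passed in edgeR, against 1.21% of all genes, and the smallest adjusted p was 0.0737 for NDUFA4. DESeq2 called 2 of 81 members, against 7.29% of all genes. Without a filter on low counts 11 of 87 members passed, against 2.77%. Without replicate 1 of the VHL-negative JQ1 libraries 42 of 81 passed, against 16.2% of all genes, and every other library left out gave 0. All of these calls of members were negative, whereas the shares of all genes are for either direction. At an unadjusted p under 0.05 in edgeR there were 27 members (33.3%), all negative. Of all 20714 genes, 4657 (22.5%) were under it in either direction, and 2481 of these were negative. The fitted difference was negative for 74 of 81 members and for 10208 of 20714 genes, with a median of -0.47 over members and 0.01 over all genes. NDUFA4 had 68.8, 35.9 and 49.1 CPM under JQ1, against 74.1, 63.3 and 74.7 CPM under DMSO in VHL-negative cells. In VHL-positive cells it had 132, 116 and 122 CPM under JQ1, against 86.6, 85.1 and 96.3 CPM under DMSO. The treatments overlapped in the VHL-negative cells and not in the VHL-positive cells, and the fitted difference was -0.93 (SE 0.25).

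**Figure D4:**
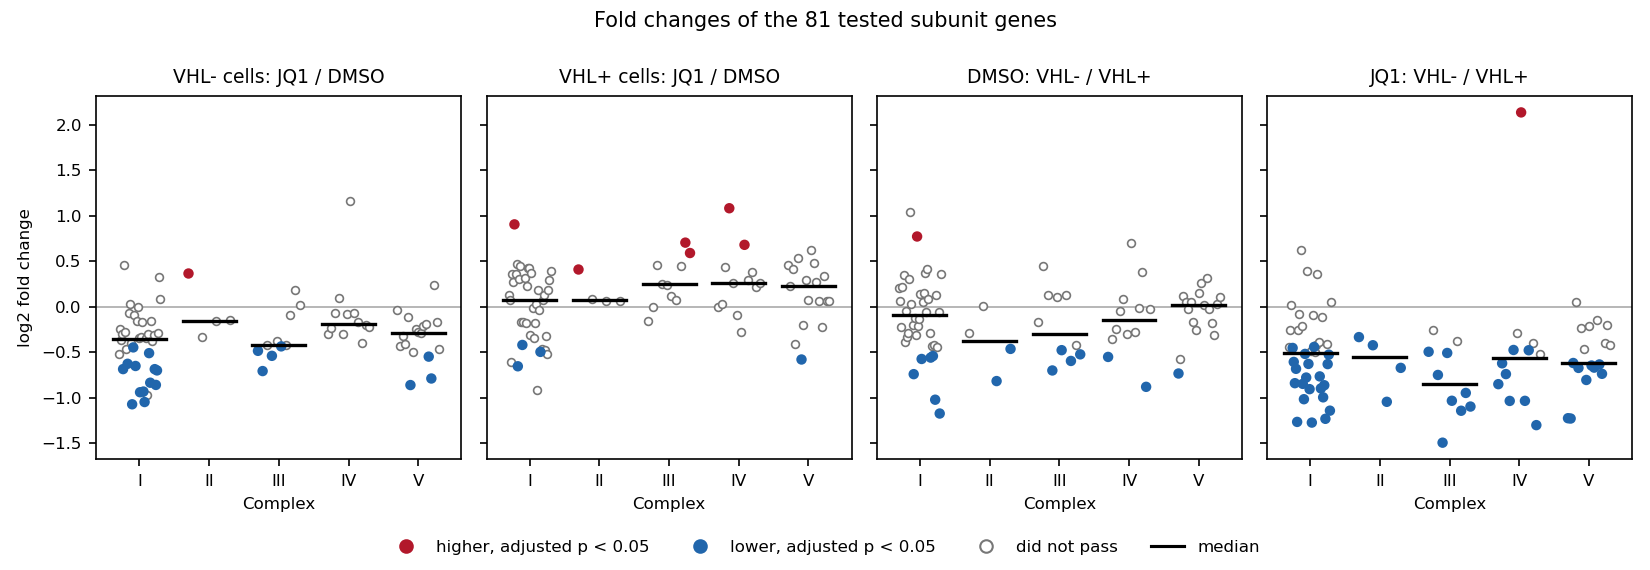
Fitted log2 fold changes of the 81 tested subunit genes by complex in 4 comparisons. Filled points passed an adjusted p of 0.05, open points did not, and bars are medians. Under JQ1, 50 genes were lower and 1 was higher in VHL-negative than in VHL-positive cells.

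Under DMSO, 15 subunit genes were lower in VHL-negative than in VHL-positive cells (18.5% of members, against 15.9% of all genes tested) and 1 was higher (1.23%, against 14.8%). The median log2 fold change was -0.06 over members and 0.00 over all genes. The lower genes were 6 of complex I, 2 of complex II, 4 of complex III, 2 of complex IV and 1 of complex V. NDUFB11 and 7 of the 15 (ATP5F1A, COX7C, NDUFAB1, NDUFS6, NDUFV2, SDHC and UQCRB) kept their calls when each library was left out in turn. The total of 16 was 10 without replicate 2 of the VHL-negative or replicate 3 of the VHL-positive DMSO libraries, where the share of all genes is not given here.

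COX7C (ENSG00000127184, chromosome 5, 86617904 to 86620962), an accessory subunit of complex IV, had 51.9, 53.6 and 61.7 CPM in VHL-negative cells, against 112, 92.9 and 103 CPM in VHL-positive cells under DMSO. The lines did not overlap (log2 -0.88, SE 0.188, adjusted p = 0.00191). NDUFS6, a zinc-binding accessory subunit of complex I, averaged 19.2 ± 2.75 CPM in VHL-negative and 38.9 ± 9.12 CPM in VHL-positive cells (log2 -1.02, adjusted p = 0.000497). NDUFAB1, the mitochondrial acyl carrier protein, averaged 18.6 ± 1.45 CPM in VHL-negative and 31.1 ± 2.31 CPM in VHL-positive cells (log2 -0.74, adjusted p = 0.00219). Neither gene overlapped between the lines. ATP5F1A, the alpha subunit of ATP synthase, had 311, 316 and 342 CPM in VHL-negative cells, against 540, 506 and 556 CPM in VHL-positive cells, a log2 change of -0.72 (SE 0.192, adjusted p = 0.00872). It was the one member of complex V that passed.

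NDUFV2, a core iron-sulfur subunit, had the most negative change (log2 -1.17, SE 0.197, adjusted p = 0.000255). It rested on 47, 86 and 72 counts in VHL-negative libraries, against 134, 141 and 177 in VHL-positive libraries, and 28.4% of its exon length overlaps another locus. NDUFB11, an X-linked accessory subunit of complex I, went the other way. It had 73.6, 52.2 and 58.1 CPM in VHL-negative cells, against 42.5, 28.6 and 36.6 CPM in VHL-positive cells, a log2 change of 0.77 (SE 0.189, adjusted p = 0.00508). The lines did not overlap, and 44.9% of NDUFB11 exon length overlaps RBM10.

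Under JQ1, subunit genes of all 5 complexes were lower in VHL-negative than in VHL-positive cells, 50 members in all (61.7%, against 21.2% of all genes tested) and 1 was higher (1.23%, against 19.7%). The median log2 fold change was -0.53 over members and 0.03 over all genes. With library sizes scaled by total counts alone, 38 members were lower and 2 higher, against 3148 lower and 5152 higher of all 20714 genes. The median was then -0.38 over members and 0.19 over all genes. With TMM scaling, the 50 lower genes were 21 of 38 for complex I, 4 of 4 for complex II and 8 of 10 for complex III. Complex IV had 8 of 12 and complex V had 9 of 17. Without replicate 1, 2 or 3 of the VHL-negative JQ1 libraries, 65, 32 and 35 members were lower, and the shares of all genes in these refits are not given here. Of the 50, 31 kept their call when each of the 12 libraries was left out in turn. All 15 genes lower in VHL-negative cells under DMSO were lower under JQ1 too. Both comparisons are between the same lines, and the same overlap over all genes was not counted.

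UQCRB, a small subunit of complex III near its quinone site, had the most negative change. It had 11.0, 6.85 and 8.27 CPM in VHL-negative cells, against 25.8, 23.7 and 24.5 CPM in VHL-positive cells under JQ1 (log2 -1.49, SE 0.186, adjusted p = 1.2e-05). COX7C had 64.5, 31.9 and 48.4 CPM in VHL-negative cells, against 130, 111 and 117 CPM in VHL-positive cells, a log2 change of -1.30 (SE 0.19, adjusted p = 5.9e-05). The lines did not overlap for either gene, with replicate 1 the highest and replicate 2 the lowest VHL-negative library. NDUFB5, a membrane-arm subunit of complex I, averaged 17 ± 5.67 CPM in VHL-negative and 41.4 ± 2.18 CPM in VHL-positive cells (log2 -1.27). ATP5F1B had 518, 211 and 360 CPM in VHL-negative cells, against 933, 772 and 845 CPM in VHL-positive cells, a log2 change of -1.23 (SE 0.229, adjusted p = 0.000537). NDUFS6 and NDUFA4 differed by -1.23 and -1.27. Each of these 6 genes kept its call under all 23 alternative settings.

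COX7A1, the isoform known from heart and skeletal muscle, was the 1 gene that was higher in VHL-negative cells under JQ1. Its counts were 9, 19 and 24 in VHL-negative libraries, against 7, 3 and 2 in VHL-positive libraries (log2 2.14, SE 0.56, adjusted p = 0.00649). Replicate 2 of the VHL-negative cells, lowest for most members, was not lowest for COX7A1. The call was lost when replicate 3 of the JQ1 libraries was dropped from each line, at an adjusted p of 0.0879. It was kept in 20 of the 21 alternative settings in which COX7A1 was tested. With only the groups compared, or with a filter of 1 CPM in 3 libraries, COX7A1 was not tested. It had at most 0.256 CPM in any VHL-positive library, against 0.308, 1.13 and 0.932 CPM in JQ1-treated VHL-negative cells. Whether it was tested at all thus depended on the filter and on the libraries fitted. Within VHL-negative cells COX7A1 did not pass for JQ1 (log2 1.16, adjusted p = 0.0811).

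Of the 4 genes of complex II, SDHA was the one that passed for JQ1 within a line, and differences among the 4 were not tested. SDHA, the flavoprotein that oxidises succinate, had 23.5, 19.6 and 21.8 CPM under JQ1, against 18.5, 15.9 and 15.9 CPM under DMSO in VHL-negative cells, a log2 change of 0.37 (SE 0.126, adjusted p = 0.0333). The VHL-positive cells had 28.7, 26.3 and 26.9 CPM under JQ1, against 21.4, 21.2 and 18.7 CPM under DMSO (log2 0.42, SE 0.125, adjusted p = 0.0176). The treatments did not overlap in either line, although the call was lost under 10 of 23 alternative settings in VHL-negative cells and 5 of 23 in VHL-positive cells. SDHB, SDHC and SDHD did not pass for JQ1 in either line. SDHC, a membrane anchor, had 20.1, 19.6 and 20.8 CPM in VHL-negative cells, against 35.5, 30.8 and 40.2 CPM in VHL-positive cells under DMSO (log2 -0.82, SE 0.144, adjusted p = 0.000386). SDHD, the other anchor, was also lower in VHL-negative cells under DMSO (log2 -0.46, adjusted p = 0.0263), a call lost under 8 of 23 alternative settings. SDHB averaged 43.6 ± 2.67 CPM in VHL-negative and 43.5 ± 2.3 CPM in VHL-positive cells under DMSO, a difference of 0.00 on the log2 scale. Under JQ1 all 4 were lower in VHL-negative cells, SDHA least (log2 -0.33, adjusted p = 0.043), and SDHA and SDHB each lost that call under 10 of 23 alternative settings.

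RNA of the subunits encoded in the mitochondrial genome differed widely between DMSO libraries of one line. Summed over 13 genes it averaged 25700 ± 1220 CPM in JQ1-treated and 29100 ± 26000 CPM in DMSO-treated VHL-negative cells, where replicate 1 held 58700 CPM and replicate 3 held 10100 CPM. In VHL-positive cells it averaged 24100 ± 5490 CPM under JQ1 and 24900 ± 10100 CPM under DMSO. None of the 13 passed in any comparison by edgeR or DESeq2, and 0 had an unadjusted p under 0.05. The ratio of this sum to that of the nuclear members was 5.21, 9.35 and 6.4 in JQ1-treated VHL-negative cells, against 11.4, 4.19 and 1.99 under DMSO, and these ranges overlapped.

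NDUFA4L2, a HIF target and paralogue of NDUFA4, was not a member and differed strongly between the lines. It had 351, 201 and 186 CPM in VHL-negative cells, against 2.41, 1.38 and 2.02 CPM in VHL-positive cells under DMSO (log2 6.98, SE 0.364, adjusted p = 3.81e-10). Under JQ1 it had 382, 296 and 326 CPM in VHL-negative cells, against 4.29, 3.32 and 1.32 CPM in VHL-positive cells, a log2 change of 6.76 (SE 0.358, adjusted p = 5.19e-10). The lines did not overlap, and JQ1 against DMSO did not pass in either (adjusted p = 0.22 in VHL-negative and 0.17 in VHL-positive cells). ATP5IF1, the inhibitor of ATP synthase, passed in none of these 4 comparisons. LONP1, a matrix protease, was higher in VHL-negative cells under DMSO and under JQ1 (log2 0.66 and 0.86). HIGD1A was lower in VHL-negative cells under JQ1 (log2 -0.87), and HIGD2A rose with JQ1 in VHL-positive cells (log2 0.64, adjusted p = 0.0293).

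Of 14 regulators of mitochondrial gene expression, 5 fell (35.7%, against 17.5% of all genes) and 1 rose (7.14%, against 14.6%) with JQ1 in VHL-negative cells. In VHL-positive cells 3 fell (21.4%, against 16.5%) and 1 rose (7.14%, against 15.3%). Between the lines, 3 were lower (21.4%, against 15.9%) and 1 higher (7.14%, against 14.8%) in VHL-negative cells under DMSO. Under JQ1, 2 were lower and 2 higher (14.3% each, against 21.2% and 19.7%). PPARGC1B, a coactivator of mitochondrial biogenesis, had 7.55, 8.88 and 8.27 CPM under JQ1, against 22.5, 17.6 and 16.8 CPM under DMSO in VHL-negative cells, a log2 change of -1.21 (SE 0.186, adjusted p = 0.000144). The VHL-positive cells had 9.46, 10.7 and 11.0 CPM under JQ1, against 23.0, 38.1 and 24.9 CPM under DMSO (log2 -1.47, SE 0.184, adjusted p = 2.67e-05). The treatments did not overlap in either line. POLRMT, the mitochondrial RNA polymerase, also fell in both lines (log2 -0.70 and -0.63). The related coactivator PPARGC1A had 31, 25 and 15 counts in VHL-negative libraries, against 1170, 879 and 1537 in VHL-positive libraries under DMSO (log2 -5.65, SE 0.249, adjusted p = 5.11e-11). Under JQ1 it had 8, 10 and 8 counts in VHL-negative libraries, against 883, 997 and 534 in VHL-positive libraries (log2 -6.53, SE 0.283, adjusted p = 5.67e-11).

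**Figure D5:**
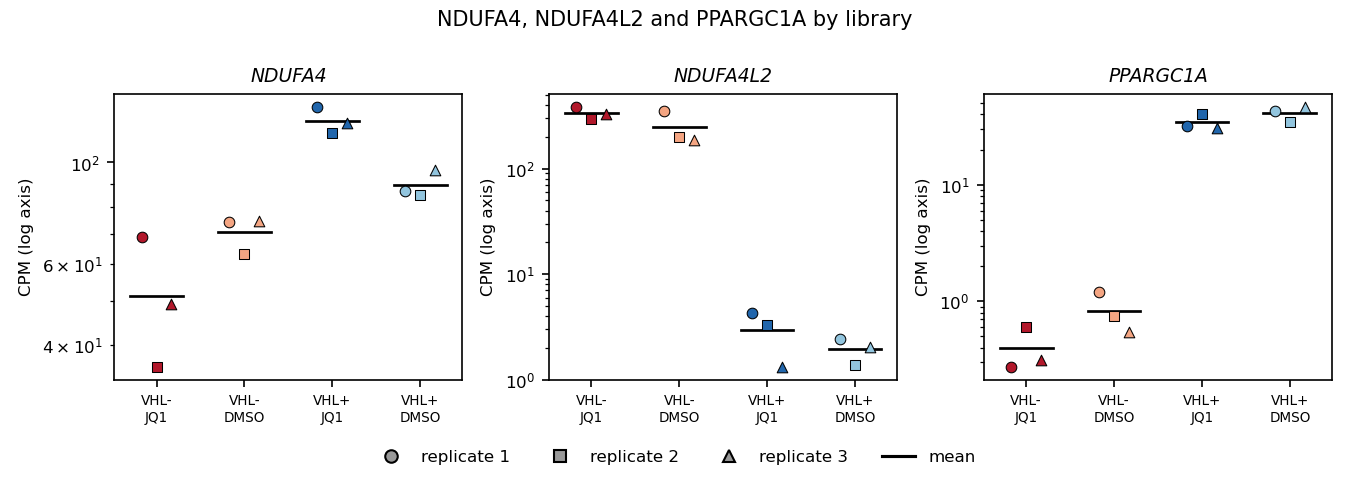
CPM of NDUFA4, NDUFA4L2 and PPARGC1A in each library on log axes, with group means as bars. NDUFA4L2 lies at 186 CPM or more in every VHL-negative library and at 4.29 CPM or less in every VHL-positive library, and PPARGC1A lies the other way.

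Assembly factors and ubiquinone genes complete the pathway. Of 51 tested assembly factors, 18 fell (35.3%, against 17.5% of all genes) and 4 rose (7.84%, against 14.6%) with JQ1 in VHL-negative cells, with a median log2 of -0.26. In VHL-positive cells 10 fell (19.6%, against 16.5%) and 7 rose (13.7%, against 15.3%), shares near those of all genes, with a median of 0.05. TACO1, which activates translation of a mitochondrially encoded subunit of complex IV, averaged 10.4 ± 2.06 CPM under JQ1 and 26.6 ± 2.79 CPM under DMSO in VHL-negative cells (log2 -1.35, adjusted p = 7.59e-06). It fell by 0.86 in VHL-positive cells (adjusted p = 0.000445). COA7, a complex IV factor, fell by 1.21 in VHL-negative and by 1.05 in VHL-positive cells. UQCC1, needed to make cytochrome b, averaged 59.6 ± 4.46 CPM under JQ1 and 122 ± 6.44 CPM under DMSO in VHL-negative cells (log2 -1.03). LYRM7, a chaperone of complex III, rose by 0.88 in VHL-positive cells. Between the lines under DMSO, 9 assembly factors were higher (17.6%, against 14.8% of all genes) and 3 lower (5.88%, against 15.9%) in VHL-negative cells, among them COA8 and SDHAF3 (log2 0.72 and 0.92) and the complex IV factor SURF1 (log2 -0.87). Under JQ1, 10 were lower (19.6%, against 21.2%) and 0 higher (against 19.7%), led by SURF1 (log2 -1.17), TMEM126B (log2 -0.88) and COA7 (log2 -0.62).

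Of 18 genes for ubiquinone synthesis, cytochrome c and electron carriers, 5 fell (27.8%, against 17.5% of all genes) and 1 rose (5.56%, against 14.6%) with JQ1 in VHL-negative cells. In VHL-positive cells 3 fell (16.7%, against 16.5%) and 6 rose (33.3%, against 15.3%). ETFDH, which passes electrons from fatty acid oxidation to ubiquinone, had 26, 21.3 and 22.3 CPM under JQ1, against 8.21, 9.08 and 7.42 CPM under DMSO in VHL-negative cells, a log2 change of 1.49 (SE 0.141, adjusted p = 1.44e-06). The VHL-positive cells had 22.1, 20.2 and 18.9 CPM under JQ1, against 7.96, 6.49 and 7.11 CPM under DMSO (log2 1.5, SE 0.142, adjusted p = 2.07e-06). The treatments did not overlap in either line, and replicate 2 of the VHL-negative JQ1 libraries lay far above the DMSO libraries for this gene. COQ3, a methyltransferase of ubiquinone synthesis, fell by 1.14 in VHL-negative and by 1.54 in VHL-positive cells. Under DMSO, 1 gene of this list was higher and 1 lower in VHL-negative cells (5.56% each, against 14.8 and 15.9%; COQ2, log2 0.55, and COQ10A, log2 -0.59). Under JQ1, 9 were lower (50%, against 21.2%) and 1 was higher (5.56%, against 19.7%), with COQ10A at -1.15, COQ9 at -0.99 and COQ10B at -0.77.

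In the authors' deposited table for VHL-negative cells, 83 members had an adjusted p. Of these, 22 were lower and 1 higher at an adjusted p under 0.05. Of all 24212 genes with an adjusted p there, 3800 were lower and 2704 higher (15.7 and 11.2%). In the authors' deposited table for VHL-positive cells, 2 of 84 members with an adjusted p were lower and 6 higher. Of all 25133 genes with an adjusted p there, 3277 were lower and 3177 higher (13.0 and 12.6%). NDUFA9 had an adjusted p of 0.0586 for VHL-positive cells in the authors' deposited table. Over tested members the largest distance between those log2 fold changes and the fitted ones was 0.0463 for VHL-negative and 0.00871 for VHL-positive cells.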

How the data were processed

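Ribosomal RNA-depleted total RNA of RCC4 cells was sequenced in 12 libraries. The deposited counts are raw counts per Ensembl gene, with 1 column per library. Per the submitters' processing notes, the genome was GRCh38 and the tools included featureCounts, Subread 2.0.3, STAR 2.7.8 and DESeq2 1.30.1. The sources used here do not give the strand setting of the counting. For each line, a table deposited by the authors compares JQ1 with DMSO and gives log2 fold changes and adjusted p-values, per the file headers.

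Of 60663 deposited IDs, 42027 had a symbol other than the ID and 58395 were in GENCODE release 29 (GRCh38), which gave gene types, positions, exon lengths and overlaps. In R 4.3.3, edgeR 4.0.16 scaled library sizes by TMM, filtered low counts by group (20714 genes left) and fitted 1 mean per group over all 12 libraries by quasi-likelihood, with limma 3.58.1 loaded. The threshold was a Benjamini-Hochberg adjusted p of 0.05. DESeq2 1.42.0 was an alternative. A prior count of 2 was added for log2 CPM. The code was tested on simulated counts.

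A few genes the rule below would name are not reported here. Members and gene lists were chosen with earlier results of these data known. Named genes were up to 6 called members per direction and comparison, the member of each complex highest per kilobase of exon, the SDH genes, the complex I core, tissue isoforms, and up to 3 called genes per other list with the smallest p, with NDUFA4L2 and ATP5IF1 always. CYC1, UQCR10, UQCRC2, ATP5PB, ATP5MK, NDUFA13, NDUFB10, GDF9, RBM10 and the list of genes that kept their calls were added after their values were seen. Alternatives were other size factors, filters, tools, gene sets and thresholds, a replicate block, fits to each comparison's own groups, and leaving out libraries.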

Additional observations from a re-analysis of the deposited data

How the results depend on the processing

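With each library left out in turn, called members ran from 11 to 52 for JQ1 in VHL-negative cells, 3 to 21 for JQ1 in VHL-positive cells, 10 to 19 between the lines under DMSO, 34 to 66 between the lines under JQ1 and 0 to 42 for the difference of JQ1 effects. The median log2 fold changes of members ran from -0.53 to -0.14, 0.11 to 0.21, -0.20 to -0.0241, -0.83 to -0.39 and -0.73 to -0.30, in the same order of comparisons. When replicate 3 of the JQ1 libraries was dropped from each line, 9, 3, 10 and 27 members were called in the first 4 comparisons. At an adjusted p under 0.01, 9, 3 and 9 were called in the first 3. For JQ1 in VHL-positive cells, 18 members were called without a filter on low counts, 18 with protein-coding genes only and 28 with only the groups compared. There the median was 0.0192 with total counts alone, 0.0885 with protein-coding genes only and 0.19 when replicate 1 of the DMSO libraries was dropped from each line. For the difference of JQ1 effects, 11 were called without the filter and 2 by DESeq2. The cause of these changes was not tested, and shares of all genes are not given for these counts of the first 4 comparisons. No member median and no called named gene changed sign, but the balance of calls for JQ1 in VHL-positive cells turned with total counts alone (2 up, 10 down) and without replicate 3 of the VHL-negative DMSO libraries (6 up, 9 down). With the replicate block, 24, 12, 17, 55 and 0 members were called. Over all pairs of groups, libraries with the same number did not pair (the correlation of their deviations ran from -0.26 to 0.335, and 12 of 36 correlated best with their own number). The comparisons differed. Correlations at the same number were 0.00886 to 0.335 for JQ1 and DMSO in VHL-negative cells (other numbers, -0.381 to 0.106) and -0.0384 to 0.0184 in VHL-positive cells. Between the lines they were 0.0116 to 0.243 under JQ1 (other numbers, -0.227 to 0.063) and -0.26 to -0.0282 under DMSO. Without the readthrough loci, UQCRHL and members overlapping other genes, 64 rather than 81 members were tested. Of these 64, 18, 8, 13, 45 and 0 were called, so these counts are not on the same base as those above. The medians were then -0.33, 0.13, -0.17, -0.63 and -0.47, against -0.30, 0.13, -0.06, -0.53 and -0.47 over all tested members. At 3 libraries per group, small changes of low-count members may go undetected, and total RNA per cell was not measured.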
